A study of Macaca mulatta with 11 samples.

Results

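The interferon response genes of rhesus monkey cumulus cells, together with the IRF and STAT transcription factors and the Janus kinases, were followed before and after oocyte maturation. They were chosen by symbol: interferons and their receptors, IFI, IFIT, IFITM, MX, OAS, ISG, GBP, IRF, STAT, JAK, TYK2, BST2, HERC6, XAF1 and TAP genes, with any symbol that begins with EIF or DDX left out. The rule took 55 of the 14132 genes with a symbol on the array, each read from 1 probe set, the one with the highest mean over all 11 arrays. The rule uses symbols and no measured difference. The genes carry 103 probe sets with a single symbol, and 26 of the 55 have more than 1. Some central genes of the pathway, such as IRF9, JAK1, IFNAR1 and RSAD2, were not analysed here.

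RNA of cumulus cells, the somatic cells around the oocyte, was hybridised to Affymetrix Rhesus Macaque arrays, 1 sample per array. The 4 pre-maturation samples (PM) came from immature complexes of animals given follicle-stimulating hormone (FSH) only. The 3 in vitro matured samples (IVM) came from complexes taken after FSH and matured in culture, while the 4 in vivo matured samples (VVM) matured inside FSH-treated animals that also received hCG, human chorionic gonadotropin. FSH is thus shared by all groups, and the labels name hCG for VVM alone. The labels give no genotype, age or animal for a sample, so the p-values reflect the spread of these samples alone, which may be technical. Levels are log2 of the deposited intensity, and differences are on that scale.

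Interferons are secreted proteins that bind receptors on the cell surface. The receptors switch on Janus kinases (JAK1, JAK2, JAK3 and TYK2), which phosphorylate STAT proteins. STAT dimers, alone or with IRF9, then raise a broad set of interferon-stimulated genes, many of which block viruses or help to present peptides. IRF factors act both upstream, by inducing interferon genes, and downstream, by regulating the stimulated genes. The same kinases and STAT proteins also serve prolactin, growth hormone, leptin and the cytokines of the interleukin 6 family, which act in the ovarian follicle. Ovulation shares many features with an inflammatory response, and cumulus cells are known to express cytokine and innate immune genes as they expand.

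The array medians lay between 5.34 and 5.53, and the arrays of a group correlated with r of at least 0.974 across probe sets. Of 20 measured cumulus and granulosa markers, 12 lay above the array median on all 11 arrays, among them FST, INHA, CYP19A1 and NR5A1. So did 8 of 15 endothelial and theca markers and 8 of 19 leukocyte markers, so this count does not by itself identify the cells. The mean of the 15 endothelial and theca markers ran from 5.38 to 5.47 in PM, 5.81 to 6.14 in IVM and 5.70 to 6.19 in VVM. The mean of 19 leukocyte markers ranged from 5.6 to 5.72 in PM, from 5.76 to 5.86 in IVM and from 5.82 to 7.31 in VVM, where VVM 2 (7.02) and VVM 3 (7.31) stood above VVM 1 (5.98) and VVM 4 (5.82). The mean of 13 oocyte markers was 7.29 in PM 1 and between 5.03 and 5.66 on the other arrays. The hybridization controls, bacterial transcripts added to the labelled sample, lay between 9.85 and 10.24 in PM, 11.45 and 12.16 in IVM and 10.39 and 11.31 in VVM. Their level thus differed between the groups without overlap, and its part in any group difference cannot be told apart from maturation. With that level as a covariate, limma called 2 of the 55 genes between IVM and VVM, 0 from PM to IVM and 1 from PM to VVM, with 10, 5 and 14 at an unadjusted p under 0.05. Of all 14132 genes that fit called 322, 2 and 1487 in the same order. All genes were not counted at an unadjusted p, so the unadjusted counts here and below have no background beside them.

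The question behind the design is how culture and in vivo maturation differ, with PM as the starting point. Between IVM and VVM, 9 of the 55 passed the test, 7 higher in IVM and 2 lower, which is 16.4% beside 16.7% of all genes (9.06% higher, 7.63% lower). From PM to IVM 20 rose and 6 fell, or 47.3% beside 45.9% of all genes (25.0% higher, 20.9% lower). From PM to VVM 10 rose and 4 fell, or 25.5% beside 39.8% (18.0% higher, 21.8% lower). The median difference of the 55 genes was 0.05 in IVM against VVM, where all genes had 0.08, and 0.27 and 0.28 from PM to IVM and to VVM, where all genes had 0.12 and 0.04. The shares called between IVM and VVM and from PM to IVM are thus near the background, and the share from PM to VVM is below it. Centring each array on its median moved the median of all genes by -0.15 from PM to IVM and by -0.11 from PM to VVM. It gave 16 higher and 7 lower, and 9 higher and 4 lower, of the 55, beside 14.7% higher and 24.1% lower, and 12.1% higher and 25.0% lower, of all genes. Both comparisons with PM use the same 4 PM arrays.

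**Figure D1:**
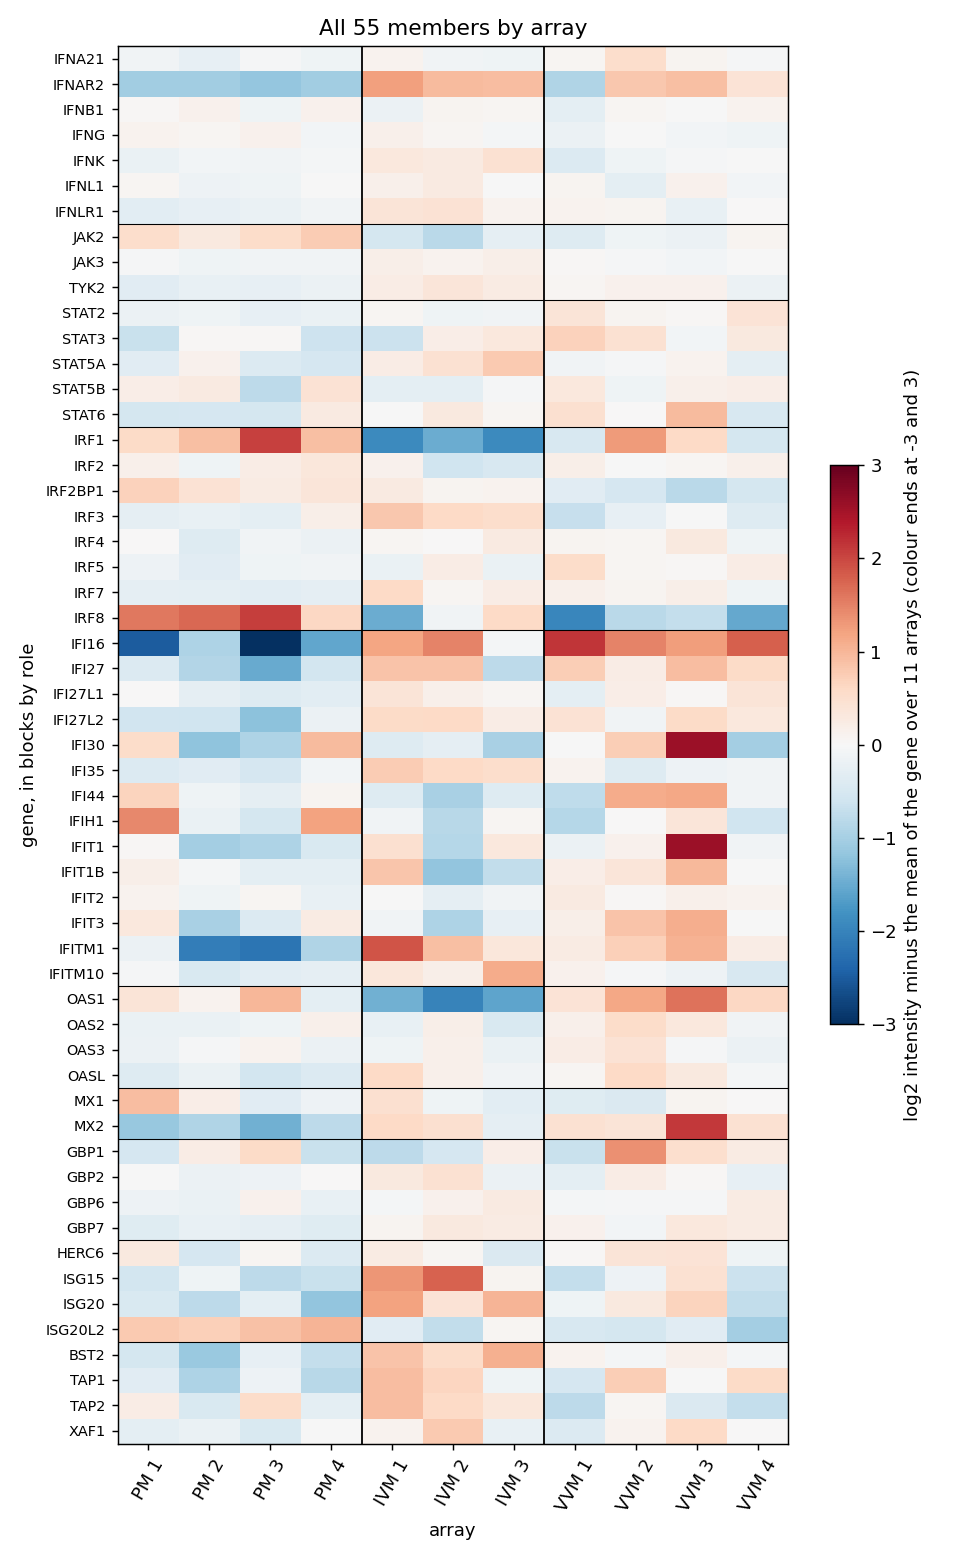
Level of each of the 55 genes on each of the 11 arrays, as log2 intensity minus the gene's mean over the arrays, in blocks by role with black lines between groups and roles. Red is above and blue below the gene's mean: IFI16 and IFITM1 are blue in PM, OAS1 and IRF1 are blue in IVM, and IFIT1, IFI30 and MX2 are red in VVM 3.

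Among ligands and receptors, IFNAR2 rose from PM in both matured groups and IFNLR1 in IVM, while 4 of the interferon genes lay below the array medians. IFNAR2, a subunit of the receptor for alpha and beta interferons, stood at 6.02, 6.02, 5.91 and 6.02 in PM, 8.30, 8.02 and 8.0 in IVM and 6.16, 7.89, 7.97 and 7.48 in VVM. All IVM arrays lay above all others, VVM 1 lay close to PM, and the other VVM arrays lay between 7.48 and 7.97. The rise from PM was 4.32-fold in IVM (2.11 ± 0.34 SE, adjusted p = 0.000874) and 2.6-fold in VVM (1.38 ± 0.32 SE, adjusted p = 0.00737), and IVM and VVM did not pass the test against each other (0.73 ± 0.34 SE, adjusted p = 0.205). That difference was 1.53 with the leukocyte marker level as a covariate and passed (adjusted p = 0.0352). With the hybridization control level as a covariate the differences from PM were 0.02 in IVM (adjusted p = 0.994) and 0.28 in VVM (adjusted p = 0.728), so neither rise was called in that fit. Its other probe set, below the array median on every array, rose by 0.33 in IVM and had a difference of 0.16 in VVM. Averaged over both probe sets the rises were 1.22 and 0.77, both called. IFNLR1, a receptor subunit for lambda interferons, rose by 0.53 ± 0.13 from PM to IVM, with 0.22 in VVM, and with cyclic loess the difference was 0.28 (adjusted p = 0.0748). In VVM the IFNAR2 call was lost with the leukocyte covariate (0.49, adjusted p = 0.429) and without PM 1, VVM 2 and VVM 3 together (0.84, adjusted p = 0.131). Cumulus RNA is a bulk measure, in which fewer cells of a type and less RNA per cell cannot be told apart.

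IFNA21, IFNB1, IFNG and IFNK, the interferon ligands themselves, had group means from 2.90 to 3.93, below the array medians in every group. IFNK, the kappa interferon, differed between IVM and both other groups, by 0.46 ± 0.12 against PM and 0.48 ± 0.12 against VVM (adjusted p = 0.0104 and 0.023). At such a low level this is a difference between dim readings, and the call against VVM was lost without IVM 3 (0.43, adjusted p = 0.0593). With array centring the difference from PM was 0.31 (adjusted p = 0.0765). IFNL1, a lambda interferon, lay between 5.97 and 6.52 on all arrays, with differences of at most 0.19 that did not pass.

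Of the Janus kinases, JAK2 fell after maturation in both settings. JAK2, the kinase of the prolactin, growth hormone and interferon gamma receptors, stood at 9.13, 8.90, 9.16 and 9.37 in PM, 8.08, 7.80 and 8.32 in IVM and 8.22, 8.48, 8.43 and 8.69 in VVM. All PM arrays lay above all matured arrays. The fall was 2.1-fold in IVM (-1.07 ± 0.16 SE, adjusted p = 0.000524) and 1.6-fold in VVM (-0.68 ± 0.15 SE, adjusted p = 0.00531), but only 1 of its 3 probe sets was called. Averaged over the 3, the difference was -0.55 in IVM (adjusted p = 0.00723) and in VVM -0.21 (adjusted p = 0.203), and the VVM call was also lost with the leukocyte covariate (-0.67, adjusted p = 0.0985). TYK2, which pairs with the alpha and beta interferon receptor, rose from 5.63 ± 0.07 (SD, n = 4) to 6.16 ± 0.07 (SD, n = 3) in IVM (0.53 ± 0.11 SE, adjusted p = 0.00323). In VVM it was at 5.91 ± 0.14 (SD, n = 4), and its difference of 0.29 (adjusted p = 0.0502) passed without IVM 2 (0.29, adjusted p = 0.0499) or VVM 4 (0.36, adjusted p = 0.0219). JAK3, best known from lymphocytes, had differences of 0.24 and 0.06 from PM that did not pass, the first of which passed averaged over its probe sets (0.34, adjusted p = 0.0196). Its dimmer probe set, below the array median on every array, was called in both, at 0.44 in IVM (adjusted p = 0.0343) and 0.43 in VVM (adjusted p = 0.0337). Between IVM and VVM limma called 0 of the 3 kinases (2 at an unadjusted p under 0.05), and the differences were -0.39 for JAK2, 0.18 for JAK3 and 0.24 for TYK2.

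Read by their brightest probe sets, STAT5A rose in IVM and STAT2 in VVM, and limma called 0 of 5 STAT factors between IVM and VVM (differences from -0.37 to 0.57, 2 at an unadjusted p under 0.05). STAT5A, a mediator of prolactin and growth hormone, rose by 0.77 ± 0.18 from PM to IVM (adjusted p = 0.00621) at means of 4.44, 5.21 and 4.64 in PM, IVM and VVM, all below the array medians, with a difference of 0.52 under cyclic loess (adjusted p = 0.0547). Against VVM its difference of 0.57 missed the threshold and passed without PM 2 (0.57, adjusted p = 0.0362) or IVM 1 (0.70, adjusted p = 0.0454). STAT5A has only 1 probe set. In the limma fit of 1 value per gene, adjusted over genes in place of probe sets, the same difference passed (0.57, adjusted p = 0.0444). STAT2, which carries the response to alpha and beta interferons together with IRF9, rose by 0.41 ± 0.11 from PM to VVM (adjusted p = 0.0176), a call lost without VVM 1 (0.36, adjusted p = 0.05) and with array centring (0.31, adjusted p = 0.0693). STAT3, the factor of interleukin 6 cytokines, lay between 3.64 and 5.00, below the array medians, with a difference of 0.64 in VVM that passed without IVM 1 (0.64, adjusted p = 0.0445). STAT6, the factor of the interleukin 4 response, had differences of 0.43 and 0.57 from PM, and the second passed without VVM 4 (0.81, adjusted p = 0.0359).

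STAT5B gave different answers from its 4 probe sets. The brightest had differences of -0.24 in IVM and 0.10 in VVM from PM, neither called, although the first passed without PM 3 (-0.51, adjusted p = 0.0229). The third and the dimmest rose in IVM, by 0.66 ± 0.16 (adjusted p = 0.00688) and 1.58 ± 0.19 (adjusted p = 0.000153), and the dimmest also rose in VVM, by 1.15 ± 0.18 (adjusted p = 0.000734). Averaged over the 4, STAT5B rose by 0.59 in IVM (adjusted p = 0.00285) and by 0.40 in VVM (adjusted p = 0.0148). For STAT6, 1 of 3 probe sets was called, with rises of 0.61 ± 0.12 and 0.56 ± 0.11, and averaged over the 3 STAT6 rose by 0.50 in VVM (adjusted p = 0.0246). Which transcripts each probe set reads was not given in the sources used here.

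Among the IRF factors, IRF1 and IRF8 fell and IRF3 rose. IRF1, an activator of interferon-stimulated and antigen presentation genes, stood at 8.67, 8.98, 10.13 and 9.0 in PM, 6.19, 6.61 and 6.18 in IVM and 7.61, 9.36, 8.69 and 7.56 in VVM. All IVM arrays lay below all PM and VVM arrays, while VVM overlapped PM. IRF1 was 3.94-fold lower in IVM than in VVM (-1.98 ± 0.44 SE, adjusted p = 0.0154) and 7.31-fold lower than in PM (-2.87 ± 0.44 SE, adjusted p = 0.000617). The difference of VVM from PM, -0.89, did not pass (adjusted p = 0.121), but it did without VVM 2 (-1.24, adjusted p = 0.0297), with the leukocyte level as a covariate (-1.84, adjusted p = 0.0491) and without PM 1, VVM 2 and VVM 3 together (-1.79, adjusted p = 0.00991). IRF1 was at 9.36 and 8.69 in VVM 2 and VVM 3, the arrays with the highest leukocyte markers. VVM 1 and VVM 4 had 7.61 and 7.56. The mean of PTPRC, CD14, LYZ and TYROBP was lower on every PM and IVM array than on any VVM array. On those arrays IRF1 was at 8.67 to 10.13 in PM and at 6.18 to 6.61 in IVM. Which cells gave the IRF1 RNA was not tested. The call of IVM against VVM was lost in the same fits, with the covariate (-1.12, adjusted p = 0.275) and without PM 1, VVM 2 and VVM 3 (-1.26, adjusted p = 0.0682).

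IRF8, a factor of myeloid and lymphoid cells, was high before maturation. It stood at 8.62, 8.77, 9.13 and 7.68 in PM, 5.55, 6.95 and 7.65 in IVM and 5.09, 6.24, 6.34 and 5.52 in VVM. Every PM array lay above every matured array, and the IVM arrays spread from 5.55 to 7.65. The fall was 6.75-fold in VVM (-2.75 ± 0.45 SE, adjusted p = 0.000982) and 3.56-fold in IVM (-1.83 ± 0.49 SE, adjusted p = 0.0125), the latter lost without IVM 1 (-1.25, adjusted p = 0.0522). A second probe set fell by 1.35 ± 0.28 in VVM and had a difference of -0.81 ± 0.30 in IVM that was not called (adjusted p = 0.0506), and the third was below the array medians throughout. Of the 19 leukocyte markers, 9 rose and 2 fell from PM to VVM. CSF1R and ITGAM were, like IRF8, highest in PM, with means of 10.10, 8.05 and 7.53 for CSF1R, the receptor of a myeloid growth factor, and 6.33, 5.74 and 5.70 for ITGAM in PM, IVM and VVM. The ITGAM call from PM to IVM (-0.59) was lost without PM 1, PM 3, PM 4, IVM 1, IVM 2 or IVM 3 (adjusted p up to 0.0844). LYZ, TYROBP and PTPRC were at or below 4.94 on every PM array. Both IRF8 calls held with the leukocyte covariate, but which cells gave the IRF8 RNA was not tested.

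IRF3, which induces interferon genes when nucleic acid sensors fire, stood at 9.33, 9.38, 9.32 and 9.79 in PM, 10.41, 10.20 and 10.13 in IVM and 8.92, 9.37, 9.59 and 9.21 in VVM. All IVM arrays lay above the PM and VVM arrays. IRF3 was 1.96-fold higher in IVM than in VVM (0.97 ± 0.17 SE, adjusted p = 0.00482) and 1.73-fold higher than in PM (0.79 ± 0.17 SE, adjusted p = 0.00442), and PM and VVM differed by -0.18, which did not pass. Its other probe set rose from PM to IVM (0.47, adjusted p = 0.0440) but not against VVM (0.20, adjusted p = 0.498). IRF2BP1, a corepressor that binds IRF2, was lowest in VVM, by 0.70 ± 0.14 relative to IVM (adjusted p = 0.00929) and with a difference of -0.98 ± 0.13 from PM (adjusted p = 0.000268). The first of these was lost with the leukocyte covariate (0.52, adjusted p = 0.162) and without PM 1, VVM 2 and VVM 3 (0.59, adjusted p = 0.0516). From PM to IVM the IRF2BP1 difference of -0.28 did not pass (adjusted p = 0.133), but it did with array centring (-0.43, adjusted p = 0.0378).

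IRF7, the amplifier of the alpha interferon response, rose by 0.57 ± 0.14 from PM to IVM (adjusted p = 0.00701). In VVM its difference of 0.35 had an adjusted p of 0.0547 and passed without IVM 1 (0.0251), IVM 2 (0.0383) or VVM 4 (0.42, adjusted p = 0.0364), with array weights (0.0286) and with the 2 groups alone (0.0233). IRF2, an antagonist of IRF1, fell by 0.47 ± 0.17 in IVM, a call at adjusted p = 0.0471 that was lost without any 1 of 9 arrays, PM 2 and IVM 1 being the exceptions, which gave -0.33 to -0.47 at an adjusted p of up to 0.182. Against VVM its difference of -0.41 passed without IVM 1 (-0.63, adjusted p = 0.0221). IRF5 had a difference of 0.40 in VVM from PM (adjusted p = 0.0512) that passed without IVM 2 (0.40, adjusted p = 0.0337) or VVM 3 (0.46, adjusted p = 0.0485). Averaged over its probe sets it rose by 0.37 in IVM (adjusted p = 0.0155) and 0.34 in VVM (adjusted p = 0.0176). IRF4, a lymphocyte factor, stayed between 3.49 and 4.17, below the array medians.

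**Figure D2:**
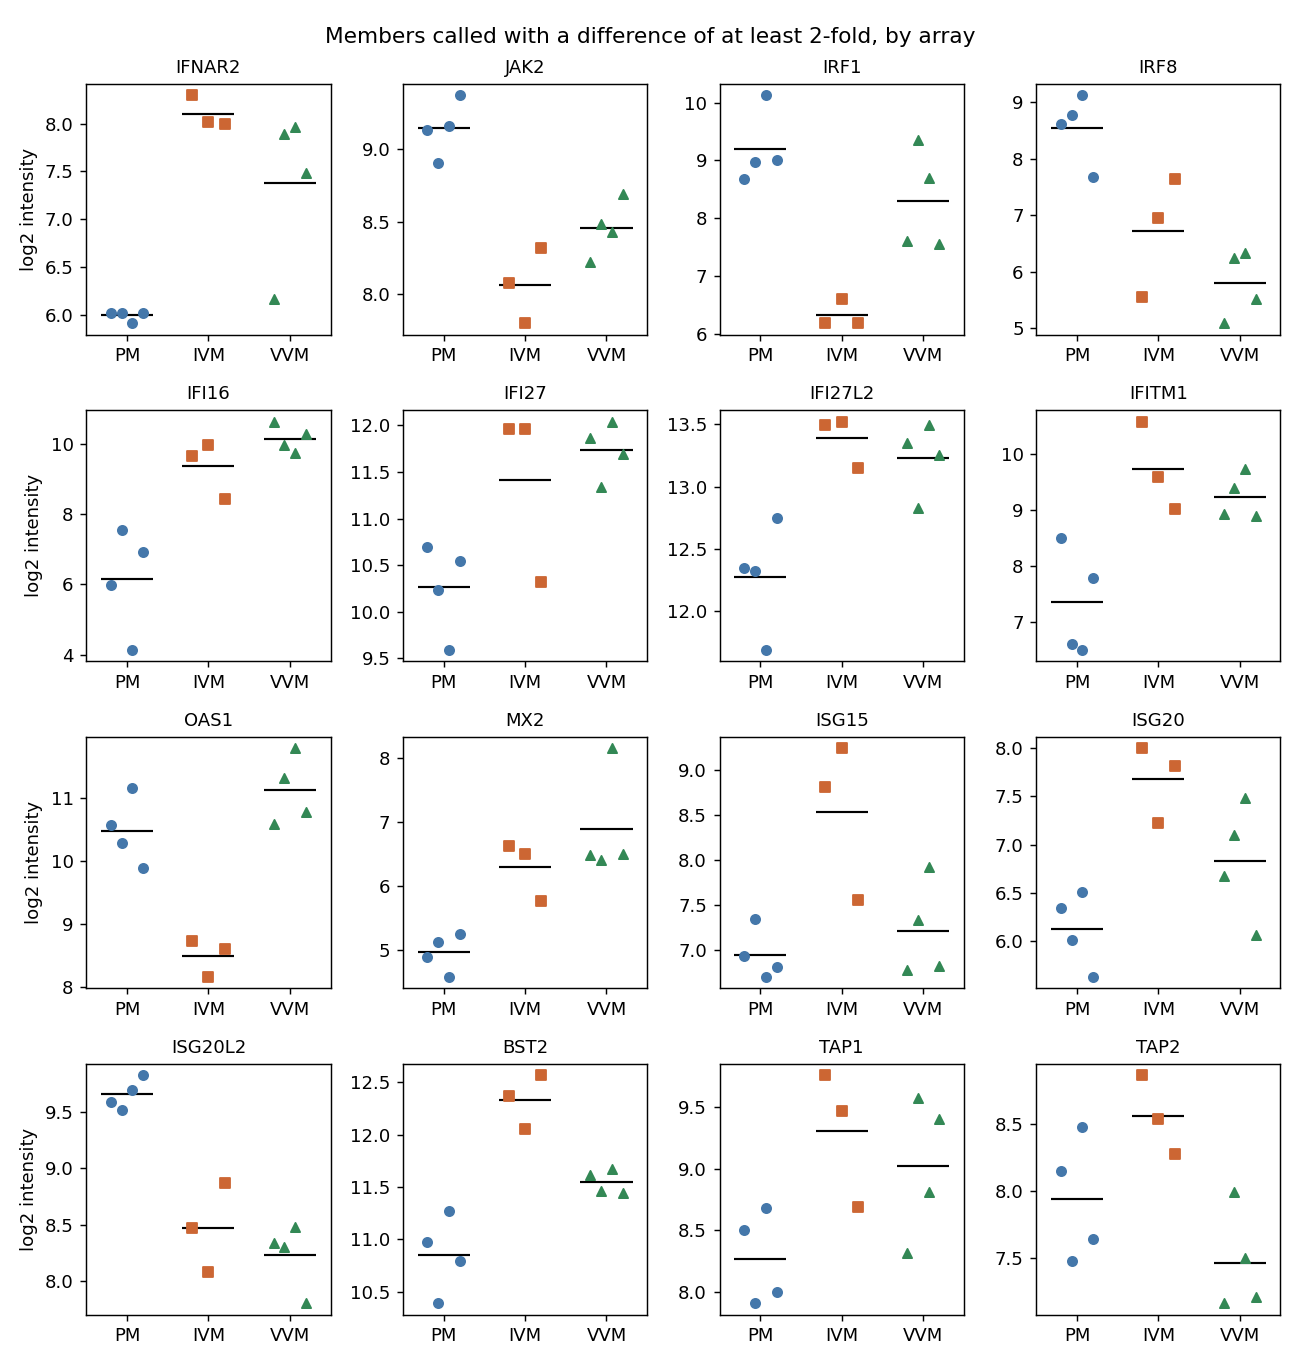
Log2 intensity of the 16 genes called with an absolute difference of at least 1 in some comparison, 1 point per array and a line at the group mean, with its own vertical axis for each gene. The panels show OAS1 and IRF1 lowest in IVM, IFI16 and IFITM1 lowest in PM, and BST2, by its brighter probe set, with 3 separate groups.

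Of the IFI and IFITM genes, a group rose with maturation in both settings. IFI16, a nuclear sensor of DNA, stood at 5.99, 7.56, 4.13 and 6.93 in PM, 9.66, 9.98 and 8.43 in IVM and 10.63, 9.96, 9.73 and 10.28 in VVM. PM spread from 4.13 to 7.56 and lay wholly below the matured arrays, which overlapped each other. The rise was 16-fold in VVM (4.0 ± 0.62 SE, adjusted p = 0.000675) and 9.23-fold in IVM (3.21 ± 0.67 SE, adjusted p = 0.00351), the largest rises among the 55 genes in both comparisons. The probe set can cross-hybridize, but the others also rose, one by 2.01 ± 0.24 in VVM and 1.92 ± 0.26 in IVM, and the dimmest by 1.15 ± 0.35 in IVM, with 0.86 in VVM not called. The calls of IFI16 held without PM 1, VVM 2 and VVM 3 and with the leukocyte covariate. Both were lost with the hybridization control covariate, at 3.38 in IVM (adjusted p = 0.498) and 4.09 in VVM (adjusted p = 0.0534).

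IFITM1, a membrane protein that hinders virus entry, stood at 8.51, 6.61, 6.5 and 7.78 in PM, 10.58, 9.60 and 9.02 in IVM and 8.93, 9.40, 9.74 and 8.90 in VVM. All matured arrays lay above all PM arrays. It rose 5.23-fold in IVM (2.39 ± 0.49 SE, adjusted p = 0.0033) and 3.71-fold in VVM (1.89 ± 0.46 SE, adjusted p = 0.00906). Its main probe set can also read related genes, and the second, which is not marked so, rose by 0.80 ± 0.27 and 0.80 ± 0.25. In VVM the call was lost with the leukocyte covariate (1.15, adjusted p = 0.300). IFITM10, a distant relative, rose by 0.82 ± 0.22 in IVM (adjusted p = 0.0129), and by 0.53 without IVM 3 (adjusted p = 0.0348), but with cyclic loess the difference was 0.56 (adjusted p = 0.0974). Against VVM its difference of 0.68 did not pass (adjusted p = 0.0714).

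IFI27 and IFI27L2, small mitochondrial proteins of the same gene cluster, rose too. IFI27 stood at 10.69, 10.23, 9.59 and 10.55 in PM, 11.96, 11.96 and 10.32 in IVM and 11.86, 11.34, 12.04 and 11.69 in VVM, so IVM 3 lay inside the PM range and the other matured arrays above it. It rose 2.77-fold in VVM (1.47 ± 0.36 SE, adjusted p = 0.00975) and 2.22-fold in IVM (1.15 ± 0.39 SE, adjusted p = 0.0348), the latter lost without PM 2 (1.14, adjusted p = 0.0618), PM 3 (0.92, 0.0848), IVM 1 (0.87, 0.140) or IVM 2 (0.88, 0.140), and the former with the leukocyte covariate (1.31, adjusted p = 0.170) and without PM 1, VVM 2 and VVM 3 (1.65, adjusted p = 0.0567). IFI27L2 stood at 12.35, 12.32, 11.69 and 12.75 in PM, 13.49, 13.52 and 13.15 in IVM and 13.35, 12.83, 13.49 and 13.25 in VVM, with no overlap of PM and the matured arrays. Its rises were 2.16-fold (1.11 ± 0.23 SE, adjusted p = 0.00362) and 1.94-fold (0.95 ± 0.22 SE, adjusted p = 0.00643), the latter lost with the leukocyte covariate (0.90, adjusted p = 0.121). IFI27L1 had differences of 0.44 and 0.32 that did not pass, the first of which passed without PM 1 (0.52, adjusted p = 0.0414), VVM 1 (0.0305) or VVM 4 (0.0444) and the second without VVM 1 (0.45, adjusted p = 0.0378). With repeated quantile normalization both passed (0.76, adjusted p = 0.00492, and 0.55, adjusted p = 0.0211), as they did with cyclic loess (0.58, 0.0229, and 0.47, 0.0451).

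IFI35, which partners NMI, was higher in IVM than in both other groups, at 9.85 ± 0.12 (SD, n = 3) against 9.08 ± 0.21 in VVM and 8.88 ± 0.18 in PM (SD, n = 4 each). The rises were 0.77 ± 0.14 over VVM (adjusted p = 0.00611) and 0.97 ± 0.14 over PM (adjusted p = 0.000472). The first was lost with the leukocyte covariate (0.63, adjusted p = 0.109) and without PM 1, VVM 2 and VVM 3 (0.64, adjusted p = 0.0732).

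The IFIT genes, whose products bind foreign RNA and are among the most responsive targets of interferon, did not pass in any comparison, by the probe sets with the highest means. At an unadjusted p under 0.05, limma gave 2 of the 4 between IVM and VVM, 0 from PM to IVM and 1 from PM to VVM. Between IVM and VVM their differences were -0.63 for IFIT1, -0.74 for IFIT1B, -0.27 for IFIT2 and -0.95 for IFIT3. IFIT3 stood at 9.58, 8.30, 8.87 and 9.51 in PM, 9.16, 8.35 and 9.03 in IVM and 9.45, 10.12, 10.36 and 9.25 in VVM, so all VVM arrays lay above all IVM arrays, at adjusted p = 0.114. The dimmest of its 3 probe sets was called, with -0.86 ± 0.21 in IVM against VVM (adjusted p = 0.0240) and 0.78 ± 0.20 in VVM against PM (adjusted p = 0.0115), and the mean of the 3 was called in both, at -0.82 (adjusted p = 0.0375) and 0.67 (adjusted p = 0.0326). For IFIT1B, IVM 1 (7.68) stood apart from IVM 2 (5.68) and IVM 3 (6.12), and without it the differences were called against VVM (-1.34, adjusted p = 0.0111) and against PM (-0.85, adjusted p = 0.0318). IFIT1 stood at 7.21, 6.16, 6.26 and 6.71 in PM, 7.65, 6.32 and 7.49 in IVM and 7.00, 7.31, 9.74 and 7.08 in VVM, and VVM 3 was the highest by a wide margin.

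IFIT2 has 6 probe sets, which gave different results. The brightest, which can cross-hybridize, was called in no comparison, with differences from -0.27 to 0.19, although its IVM arrays (7.63 to 7.88) lay below its VVM arrays (7.94 to 8.17). With repeated quantile normalization its difference from PM to VVM was 0.41 and was called (adjusted p = 0.0182). Averaged over the 6, IFIT2 had -0.47 in IVM against VVM (adjusted p = 0.0444) and 0.45 from PM to VVM (adjusted p = 0.0194). The second was lower in IVM, with differences of -1.60 ± 0.33 from VVM (adjusted p = 0.00979) and -1.2 ± 0.33 from PM (adjusted p = 0.0139). The third rose from PM by 1.22 ± 0.33 in IVM (adjusted p = 0.0142) and by 1.25 ± 0.31 in VVM (adjusted p = 0.0106). A direction for IFIT2 therefore depends on the probe set.

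IFI30, IFI44 and IFIH1 did not pass in any comparison. IFI30, a lysosomal thiol reductase of antigen-presenting cells, stood at 7.62, 5.88, 6.16 and 8.03 in PM, 6.68, 6.81 and 6.11 in IVM and 7.06, 7.81, 9.64 and 6.06 in VVM. It was highest in VVM 3 and PM 4. IFI44 had a difference of -0.93 between IVM and VVM (adjusted p = 0.193) that passed without VVM 1 (-1.30, adjusted p = 0.0485), with VVM 2 and VVM 3 at 8.01 and 8.07. Its difference from PM to IVM passed with the leukocyte covariate (-0.78, adjusted p = 0.0340). IFIH1, a sensor of double-stranded RNA, had differences of -0.77 and -0.75 from PM, where PM 1 and PM 4 stood at 6.14 and 5.92 and PM 2 and PM 3 at 4.51 and 4.18.

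OAS1 showed the largest difference of all 55 genes between IVM and VVM. OAS proteins make oligoadenylates that activate the nuclease RNase L. OAS1 stood at 10.57, 10.29, 11.17 and 9.89 in PM, 8.73, 8.16 and 8.60 in IVM and 10.59, 11.33, 11.80 and 10.79 in VVM. All IVM arrays lay below all others, and PM and VVM overlapped. It was 6.18-fold lower in IVM than in VVM (-2.63 ± 0.33 SE, adjusted p = 0.000857) and 3.95-fold lower than in PM (-1.98 ± 0.33 SE, adjusted p = 0.000936). VVM and PM differed by 0.65, which did not pass (adjusted p = 0.128) but did without PM 3 (0.88, adjusted p = 0.0449). The call against VVM was kept under every alternative and without each array, and the differences without 1 array ran from -2.81 to -2.40, but averaging over its probe sets brought the difference to -0.69.

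The other 4 probe sets of OAS1 were not called between IVM and VVM. Their differences were 0.06, 0.02, -0.99 and 0.08, and for the third of these (adjusted p = 0.164) the IVM arrays, from 4.33 to 4.83, lay below the VVM arrays, from 4.86 to 6.64. Another of the 4 rose from PM to IVM (0.55 ± 0.13, adjusted p = 0.00611) and to VVM (0.53 ± 0.12, adjusted p = 0.00601). Averaged over its 5 probe sets, OAS1 had a difference of -0.69 between IVM and VVM (adjusted p = 0.0281), and of -0.19 from PM to IVM (adjusted p = 0.420) and 0.50 from PM to VVM (adjusted p = 0.0414). The size of the fall thus rests on the brightest probe set, whose PM mean was 10.48 while the other 4 had PM means between 4.63 and 7.22. Which probe set reads OAS1 best was not tested.

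**Figure D3:**
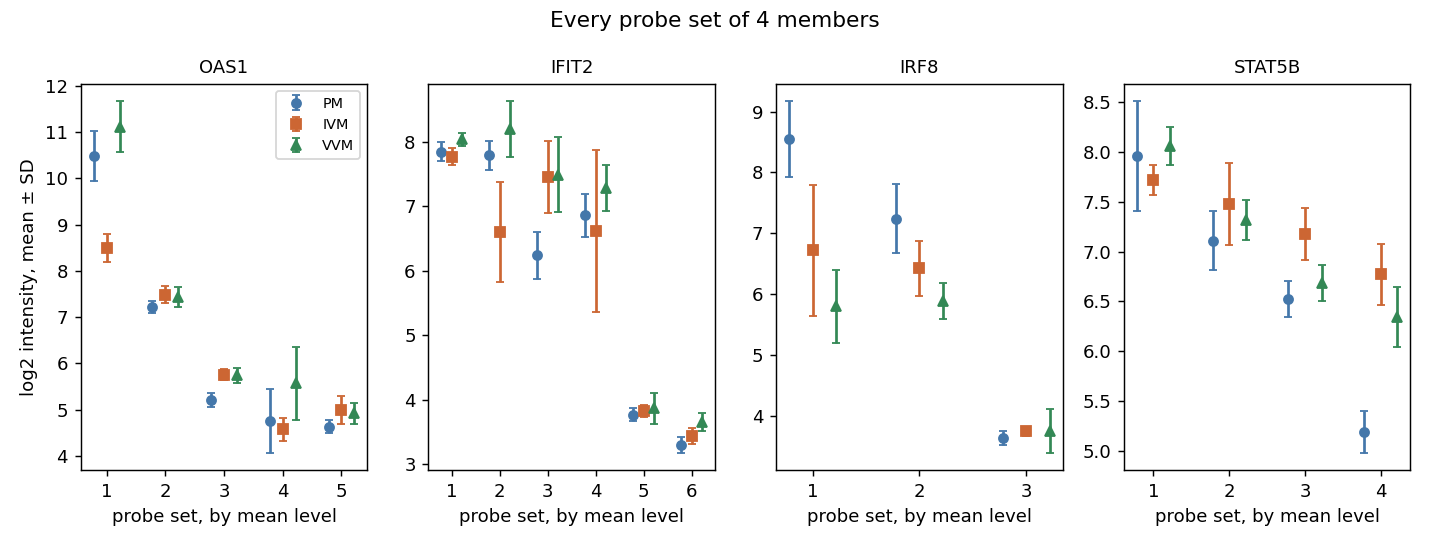
Mean ± SD of log2 intensity in PM (4 arrays), IVM (3 arrays) and VVM (4 arrays) for every single-symbol probe set of OAS1, IFIT2, IRF8 and STAT5B, ordered by mean level. OAS1 is lower in IVM than in VVM by 2.63 in probe set 1 and by 0.99, not called, in probe set 4, IFIT2 probe sets 2 and 3 differ in opposite ways from PM in IVM, and STAT5B rises most in its dimmest probe set.

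OAS2 and OAS3 lie near OAS1 in the current rhesus assembly. By their brightest probe sets they had differences between IVM and VVM of -0.40 and -0.17 that did not pass, and OAS2 lay below the array medians. These are smaller than the -2.63 of the brightest OAS1 probe set, but the other OAS1 probe sets had 0.06, 0.02, -0.99 and 0.08. OASL, an OAS-like protein that helps RNA sensing, rose from PM in both groups, by 0.61 ± 0.19 and 0.61 ± 0.18 (adjusted p = 0.0256 and 0.0232), from a PM mean below the array medians. Its call in IVM was lost without PM 1 (0.61), PM 3 (0.56), PM 4 (0.60), IVM 1 (0.42) or IVM 2 (0.64), with adjusted p up to 0.112, and in VVM without PM 1 (0.61), PM 3 (0.56), PM 4 (0.60), VVM 2 (0.48) or VVM 3 (0.58), up to 0.0649. With the leukocyte covariate the VVM difference was 0.29 (adjusted p = 0.516). The IVM call of OASL was also lost with array centring (0.46, adjusted p = 0.072), repeated quantile normalization (0.48, 0.0709) and cyclic loess (0.36, 0.149). Its VVM call was lost with repeated quantile normalization (0.50, adjusted p = 0.0523) and cyclic loess (0.45, 0.0639).

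The MX genes, GTPases that block virus replication, differed from each other. MX2 stood at 4.89, 5.12, 4.58 and 5.25 in PM, 6.63, 6.5 and 5.76 in IVM and 6.48, 6.41, 8.15 and 6.49 in VVM. Every matured array lay above every PM array, and VVM 3 stood apart. It rose 3.78-fold in VVM (1.92 ± 0.36 SE, adjusted p = 0.00237) and 2.52-fold in IVM (1.33 ± 0.39 SE, adjusted p = 0.0197) from a PM mean below the array medians. The IVM call was lost without IVM 1 (1.17, adjusted p = 0.0752) or IVM 2 (1.23, adjusted p = 0.0681), and the VVM call with the leukocyte covariate (0.95, adjusted p = 0.186). MX1, its neighbour in the assembly, had differences of -0.15 and -0.34 from PM that did not pass.

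Guanylate binding proteins, which defend the cell interior and respond strongly to interferon gamma, were mostly dim. GBP1, read by a probe set that can cross-hybridize, ranged from 5.26 to 7.41, and the highest value was in VVM 2. GBP7 rose from 3.17 ± 0.07 (SD, n = 4) to 3.68 ± 0.11 in IVM (SD, n = 3) and 3.63 ± 0.17 in VVM (SD, n = 4), by 0.51 ± 0.12 and 0.46 ± 0.11 (adjusted p = 0.00575 and 0.00795), well below the array medians. The IVM call was lost with cyclic loess (0.33, adjusted p = 0.0577). The VVM call was lost with the leukocyte covariate (0.45, adjusted p = 0.125) and without PM 1, VVM 2 and VVM 3 (0.47, adjusted p = 0.0585). GBP2 and GBP6 did not pass, although GBP2 did from PM to IVM without IVM 3 (0.46, adjusted p = 0.0400).

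**Figure D4:**
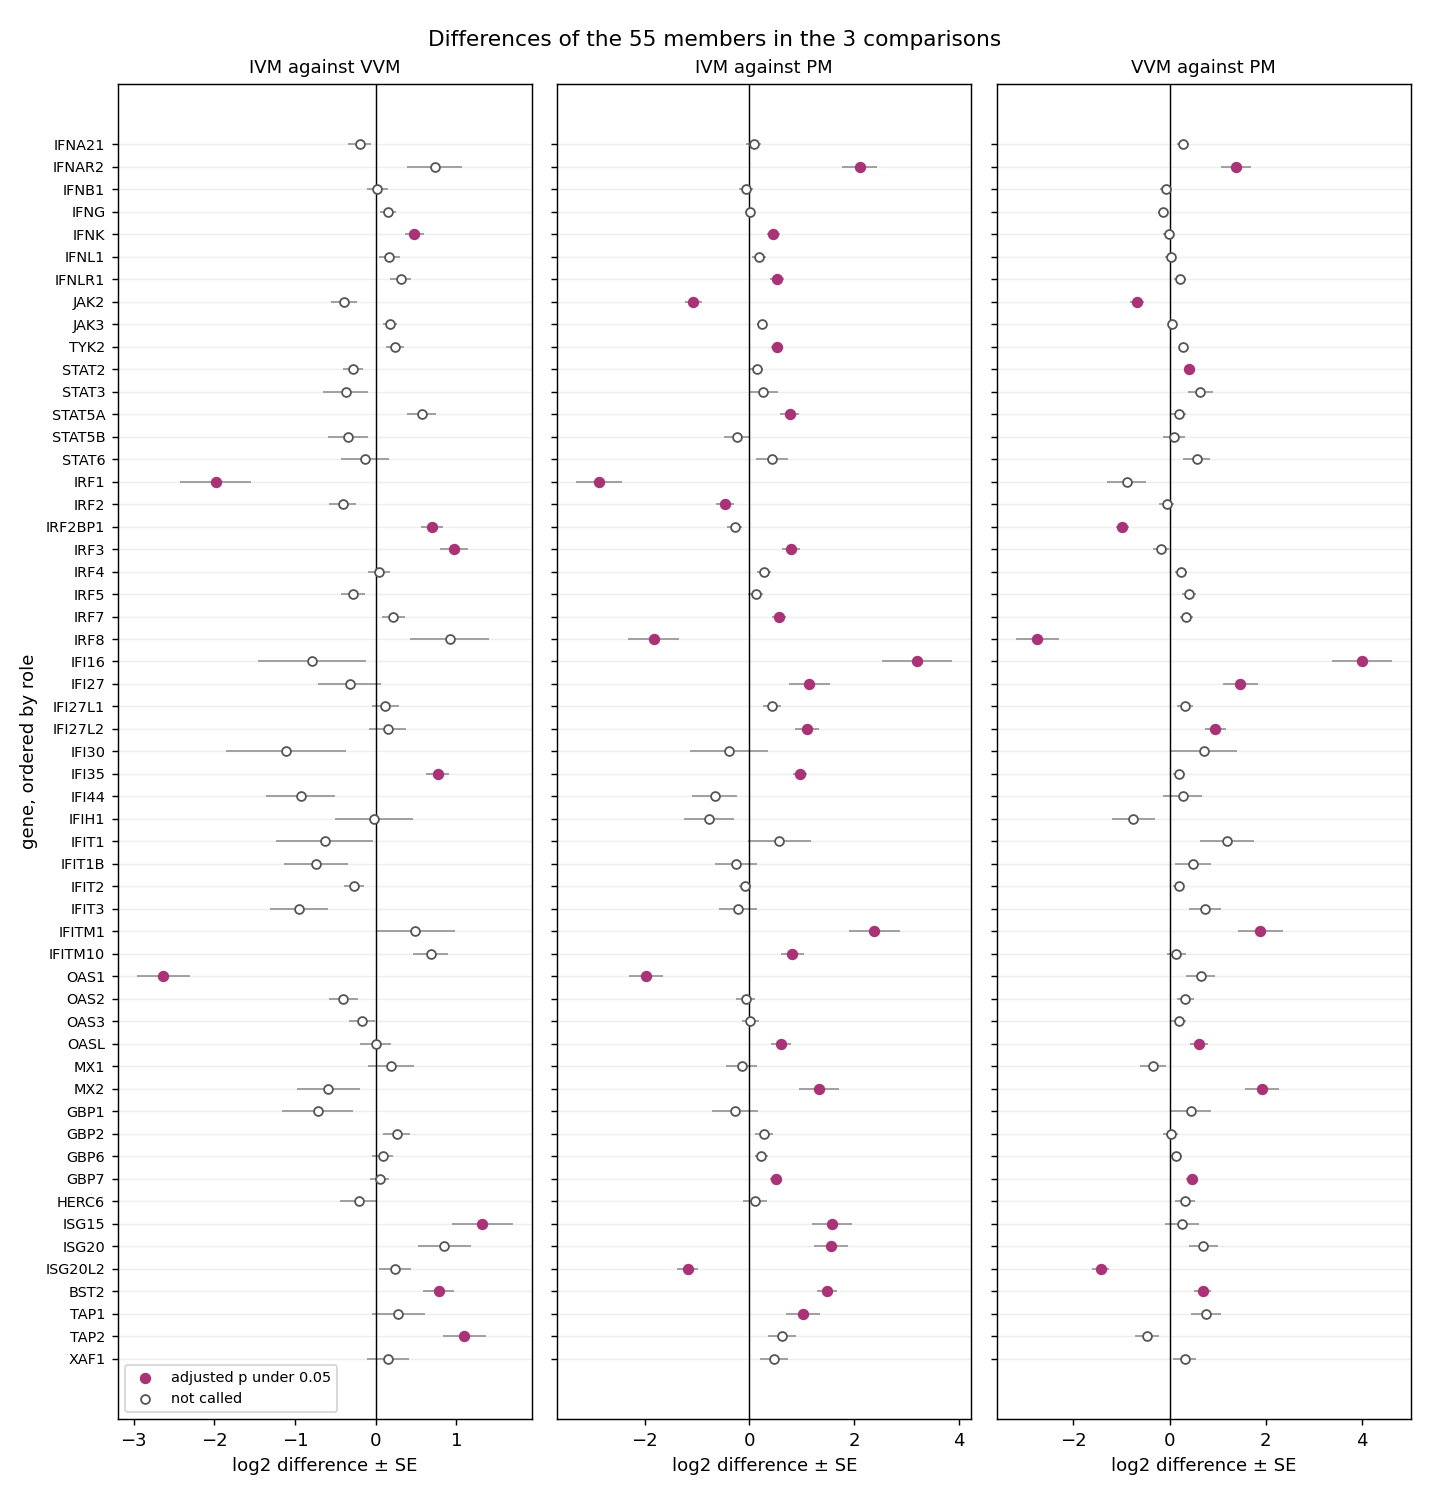
Log2 difference ± SE of each of the 55 genes in the 3 comparisons, ordered by role, with filled points for an adjusted p under 0.05 and open points for the rest. Against VVM, 9 points are filled, with OAS1 (-2.63) and IRF1 (-1.98) on the left and ISG15 (1.32) and TAP2 (1.10) farthest to the right.

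ISG15 and ISG20 rose in culture. ISG15, a ubiquitin-like protein that is joined to other proteins after interferon, stood at 6.93, 7.34, 6.70 and 6.81 in PM, 8.81, 9.24 and 7.55 in IVM and 6.77, 7.33, 7.92 and 6.82 in VVM. IVM 1 and IVM 2 lay above all other arrays, while IVM 3 lay inside the VVM range. The rise from PM to IVM was 3-fold (1.58 ± 0.38 SE, adjusted p = 0.00732). Against VVM it was 2.5-fold (1.32 ± 0.38 SE, adjusted p = 0.0459), a call that needed every array but IVM 3 and VVM 3: leaving out any of the other 9 gave 0.97 to 1.36 with an adjusted p of up to 0.184. It was also lost with the replicate numbers as a block (1.23, adjusted p = 0.0927), with array centring (1.28, 0.0506), cyclic loess (1.28, 0.0591), the 2 groups alone (1.32, 0.0992) and without PM 1, VVM 2 and VVM 3 (1.74, 0.0548). From PM to VVM its difference was 0.26, which did not pass.

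ISG20, an exonuclease that degrades viral RNA, stood at 6.34, 6.01, 6.51 and 5.63 in PM, 8.0, 7.22 and 7.82 in IVM and 6.67, 7.10, 7.48 and 6.06 in VVM. The IVM arrays lay above all PM arrays and overlapped VVM. It rose 2.94-fold from PM to IVM (1.56 ± 0.33 SE, adjusted p = 0.00355). In VVM the difference of 0.70 did not pass (adjusted p = 0.0978), but it did without VVM 4 (0.96, adjusted p = 0.0228) and with the replicate block (0.70, adjusted p = 0.0281). IVM and VVM differed by 0.85, which did not pass (adjusted p = 0.119), but did with the leukocyte covariate (1.58, adjusted p = 0.0289). ISG20L2, an exonuclease of ribosome biogenesis that shares the name, went the other way, at 9.59, 9.52, 9.70 and 9.83 in PM, 8.47, 8.08 and 8.87 in IVM and 8.34, 8.30, 8.48 and 7.80 in VVM. All PM arrays lay above the matured ones, and it fell 2.27-fold in IVM (-1.18 ± 0.20 SE, adjusted p = 0.00103) and 2.69-fold in VVM (-1.43 ± 0.18 SE, adjusted p = 0.000216), with 1 of 2 probe sets called. HERC6, of the HERC ligase family, had differences of 0.11 and 0.32 from PM that did not pass.

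BST2, also known as tetherin, holds budding viruses at the cell surface. Read by its brighter probe set, it was the only 1 of the 55 genes called in all 3 comparisons, at 10.97, 10.39, 11.27 and 10.79 in PM, 12.37, 12.05 and 12.57 in IVM and 11.61, 11.46, 11.67 and 11.44 in VVM. The 3 groups did not overlap, with IVM highest and PM lowest. BST2 was 2.78-fold higher in IVM than in PM (1.48 ± 0.19 SE, adjusted p = 0.000224), 1.62-fold higher in VVM than in PM (0.69 ± 0.18 SE, adjusted p = 0.013) and 1.72-fold higher in IVM than in VVM (0.78 ± 0.19 SE, adjusted p = 0.0241). The last was lost without IVM 1 (0.77, adjusted p = 0.0645), IVM 3 (0.66, 0.0706), VVM 2 (0.75, 0.0566) or VVM 4 (0.75, 0.0551). With the leukocyte covariate it was 0.84 (adjusted p = 0.125) and the difference of VVM from PM 0.63 (adjusted p = 0.188). Without PM 1, VVM 2 and VVM 3 these were 0.80 (adjusted p = 0.123) and 0.71 (adjusted p = 0.111). The dimmer probe set rose from PM to IVM (1.28 ± 0.33, adjusted p = 0.0103) but was not called against VVM (0.81, adjusted p = 0.138) or from PM to VVM (0.46, adjusted p = 0.269). Averaged over both, the difference from PM to VVM was 0.58 (adjusted p = 0.0634).

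TAP1 and TAP2 form the transporter that carries peptides to class I molecules. TAP1 stood at 8.50, 7.91, 8.68 and 8.0 in PM, 9.76, 9.47 and 8.69 in IVM and 8.32, 9.57, 8.81 and 9.40 in VVM. IVM 3 lay just above the highest PM array and IVM 1 and IVM 2 lay further above, and VVM overlapped both groups. It rose 2.05-fold from PM to IVM (1.03 ± 0.33 SE, adjusted p = 0.0292), a call lost without PM 2 (0.91, adjusted p = 0.0682), PM 4 (0.94, 0.0679), IVM 1 (0.81, 0.119) or IVM 2 (0.95, 0.0910), with the replicate block (1.05, 0.0689), with centring (0.89, 0.0618) and without PM 1, VVM 2 and VVM 3 (1.11, 0.0532). In VVM the difference of 0.75 passed without VVM 1 (0.99, adjusted p = 0.0304), with repeated quantile normalization (0.98, 0.0414) and with array weights (0.81, 0.0446).

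TAP2 stood at 8.15, 7.48, 8.48 and 7.64 in PM, 8.87, 8.54 and 8.28 in IVM and 7.16, 7.99, 7.5 and 7.21 in VVM. The IVM arrays lay above all VVM arrays and overlapped PM. It was 2.14-fold higher in IVM than in VVM (1.10 ± 0.27 SE, adjusted p = 0.023), with 1 of 3 probe sets called. This call was lost without IVM 1 (0.95, adjusted p = 0.0809), IVM 2 (1.11, 0.0693), VVM 1 (1.0, 0.0592) or VVM 4 (1.02, 0.0556), with array weights (1.09, 0.0535) and with the replicate block (1.01, 0.0752). Averaged over the 3 it was 0.50 (adjusted p = 0.0291). From PM to IVM its difference of 0.63 passed without PM 3 (0.81, adjusted p = 0.0323), with repeated quantile normalization (0.93, 0.0234) and averaged over probe sets (0.49, 0.0143). XAF1, a promoter of apoptosis, had differences of 0.47 and 0.32 from PM that did not pass.

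**Figure D5:**
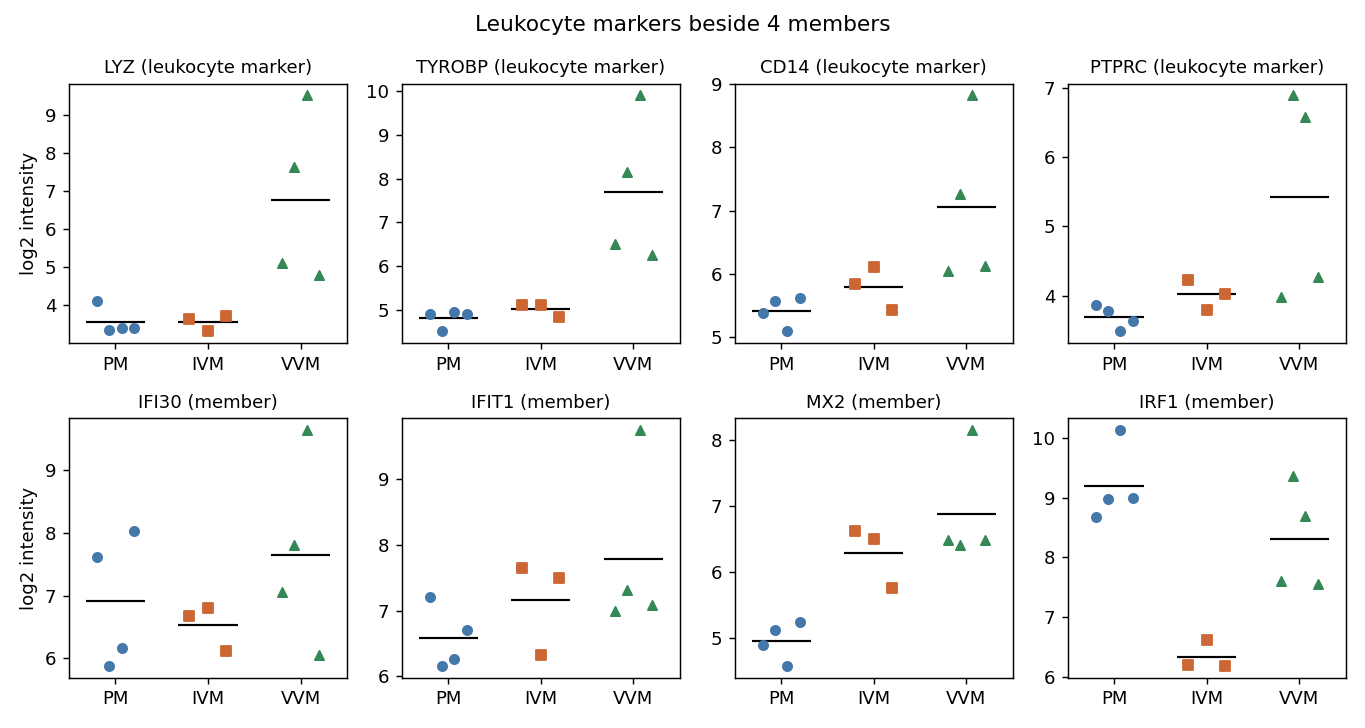
Log2 intensity of 4 leukocyte markers (top) and of IFI30, IFIT1, MX2 and IRF1 (bottom), 1 point per array with a line at the group mean. VVM 2 and VVM 3 stand above VVM 1 and VVM 4 for all 4 markers, and VVM 3 is the highest VVM array for IFI30, IFIT1 and MX2.

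The mean of the 19 leukocyte markers was highest in VVM 2 and VVM 3, although CSF1R and ITGAM had their highest group means in PM. LYZ, a lysozyme of myeloid cells, was at 5.10, 7.62, 9.51 and 4.79 in VVM 1 to VVM 4 and between 3.32 and 4.10 elsewhere. Of 19 markers, 9 rose and 2 fell from PM to VVM, and 3 were lower in IVM relative to VVM. These are 57.9% and 15.8% of the markers, beside 39.8% and 16.7% of all genes. On VVM 3, IFI30 was at 9.64, IFIT1 at 9.74 and MX2 at 8.15, each the highest of its 11 arrays. On VVM 2 the same genes were at 7.81, 7.31 and 6.41, and this MX2 value was the lowest in VVM. With a covariate made of 4 markers (the mean of PTPRC, CD14, LYZ and TYROBP), 6 of the 55 genes were called from PM to VVM in place of 14, 6 between IVM and VVM in place of 9, and 26 from PM to IVM. Of all genes that fit called 2461 from PM to VVM in place of 5622, 1215 between IVM and VVM in place of 2358, and 6355 from PM to IVM in place of 6492. Without PM 1, VVM 2 and VVM 3 the 55 genes gave 9, 3 and 22 calls in the same order, and all genes 3025, 1393 and 4905. MS4A1, a B cell marker, lay below the array medians on every array.

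Of 14 measured genes that restrain JAK and STAT signalling, 1 rose and 5 fell from PM to IVM, 3 rose and 6 fell from PM to VVM, and in IVM relative to VVM 1 was higher and 2 were lower. SOCS4 fell by 1.30 ± 0.12 in IVM and 1.56 ± 0.11 in VVM, both relative to PM. PIAS1, a SUMO ligase that binds STAT proteins, fell by 1.95 ± 0.25 in IVM and dropped by 1.78 ± 0.23 in VVM. SOCS2, which curbs growth hormone signals, fell by 1.66 ± 0.24 in IVM and dropped by 1.44 ± 0.22 in VVM. CISH, a STAT5 target, fell by 1.56 ± 0.41 in VVM. SH2B3, an adaptor that limits JAK2, rose by 1.37 ± 0.24 and 1.88 ± 0.22. SOCS1, an inhibitor of interferon signalling, was higher in IVM than in VVM (0.72 ± 0.14, 1 of 5 probe sets). The phosphatase genes PTPN1 (-1.13 ± 0.25) and PTPN11 (-0.64 ± 0.15) were lower there, both lost without IVM 2 (-0.84, adjusted p = 0.0563, and -0.58, adjusted p = 0.0788). These counts, 42.9%, 64.3% and 21.4% of the list, stand beside 45.9%, 39.8% and 16.7% of all genes. The shares of all genes called lower were 20.9%, 21.8% and 7.63%. The list's median differences were -0.29, -0.07 and -0.12, and the lists here were drawn up with earlier results of these data known.

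The sensors of foreign nucleic acid and their relay gave 5 rises and 3 falls of 18 from PM to IVM, 5 and 4 from PM to VVM, and between IVM and VVM 1 lower in IVM. These are 44.4%, 50.0% and 5.56% of the list, beside 45.9%, 39.8% and 16.7% of all genes. AIM2, a sensor of cytosolic DNA related to IFI16, rose by 2.66 ± 0.44 and 3.27 ± 0.40 from PM, with 1 of 4 probe sets called. TBK1, the kinase that activates IRF3, fell by 2.23 ± 0.31 in IVM. It was lower there than in VVM (-1.2 ± 0.31), lost without IVM 2 (-0.79, adjusted p = 0.0910), VVM 1 (-1.01, 0.0681) or VVM 2 (-1.12, 0.0674). TRAF3 and TRAF6, adaptors of innate immune receptors, fell by 1.39 ± 0.28 and 1.37 ± 0.20 in IVM and by 1.56 ± 0.26 and 1.63 ± 0.19 in VVM. TLR4, a receptor of bacterial lipids, rose by 1.69 ± 0.37 in VVM. RIGI, CGAS, TLR3, TLR8 and ZBP1 lay below the array medians on all 11 arrays.

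Other interferon-stimulated genes, outside the rule, gave 7 rises and 4 falls of 33 from PM to IVM, 9 and 4 from PM to VVM, and 1 each way between IVM and VVM. These are 33.3%, 39.4% and 6.06% of the list, beside 45.9%, 39.8% and 16.7% of all genes. CD274, an immune checkpoint ligand, rose by 1.36 ± 0.23 in IVM, UBE2L6, the conjugating enzyme of ISG15, by 1.51 ± 0.29, TENT5A by 1.58 ± 0.23 and NMI, the partner of IFI35, by 1.2 ± 0.22. In VVM, IDO1, a tryptophan-degrading enzyme, rose by 2.02 ± 0.55 and TENT5A by 1.84 ± 0.21, while PARP12 fell by 1.93 ± 0.21 and LGALS3BP by 1.41 ± 0.16. Between IVM and VVM, WARS1, a tRNA synthetase, was higher in IVM (1.01 ± 0.20, 1 of 3 probe sets). SP100, of nuclear bodies, was lower (-0.67 ± 0.17), lost without IVM 1 (-0.54, adjusted p = 0.0899), VVM 2 (-0.66, 0.0545) or VVM 3 (-0.61, 0.0613). The chemokine genes CXCL9 and CXCL10, among the most inducible by interferon gamma, lay below the array medians on all arrays.

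Class I antigen presentation genes gave 4 rises and 6 falls of 18 from PM to IVM, 3 and 4 from PM to VVM, and between IVM and VVM 3 higher in IVM and 2 lower. These are 55.6%, 38.9% and 27.8% of the list, beside 45.9%, 39.8% and 16.7% of all genes. PSMB10, an immunoproteasome subunit, rose by 2.24 ± 0.23 from PM to IVM and was 1.58 ± 0.23 higher than in VVM. PSME2, a proteasome activator subunit raised by interferon gamma, rose by 1.29 ± 0.14 and was 1.19 ± 0.14 higher. ERAP1, which trims peptides, fell by 1.84 ± 0.28 from PM to IVM. It was -1.01 ± 0.28 against VVM, a call lost without PM 1, PM 3, IVM 1, IVM 2, VVM 1, VVM 2 or VVM 3 (differences from -0.83 to -1.01, adjusted p up to 0.161). B2M, the light chain of class I molecules, rose by 1.43 ± 0.21 in VVM. RFXAP, a regulator of class II genes, fell by 1.41 ± 0.40 from PM to IVM, lost without IVM 1 (-0.99, adjusted p = 0.0758). MAMU-B was lower in IVM than in VVM (-0.90 ± 0.22), lost without IVM 1 (-0.69, adjusted p = 0.0749), VVM 2 (-0.77, 0.0513) or VVM 4 (-0.83, 0.0523), and the MAMU genes are a polymorphic family whose probe sets may read one another.

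Receptors and ligands that use the same kinases, other than interferons, gave 8 rises and 4 falls of 28 from PM to IVM, 12 and 2 from PM to VVM, and between IVM and VVM 2 lower in IVM. These are 42.9%, 50.0% and 7.14% of the list, beside 45.9%, 39.8% and 16.7% of all genes. OSMR, the oncostatin M receptor, rose by 3.19 ± 0.28 and 2.57 ± 0.26, and IL13RA1 by 1.41 ± 0.27 and 2.42 ± 0.25. IL6ST, the shared receptor chain of the interleukin 6 family, rose by 2.12 ± 0.55 in IVM and 1.78 ± 0.51 in VVM, the latter lost without PM 1 (1.69, adjusted p = 0.0550), PM 4 (1.53, 0.0604) or VVM 3 (1.65, 0.0544). IL11RA fell by 1.46 ± 0.30 and 2.0 ± 0.28. PRLR, the prolactin receptor, was lower in IVM than in VVM (-1.55 ± 0.39), lost without IVM 1 (-1.62, adjusted p = 0.0563), IVM 2 (-1.39, 0.108), VVM 1 (-1.45, 0.0665) or VVM 3 (-1.42, 0.0626). IL13RA1 was also lower there (-1.01 ± 0.27), lost without IVM 2 (-0.96, adjusted p = 0.110), IVM 3 (-0.93, 0.0811), VVM 1 (-1.02, 0.0652), VVM 3 (-0.81, 0.0623) or VVM 4 (-1.02, 0.0610).

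Known targets of STAT3 and STAT5 gave 7 rises and 4 falls of 20 from PM to IVM, 11 and 3 from PM to VVM, and between IVM and VVM 2 higher in IVM and 4 lower. These are 55%, 70.0% and 30.0% of the list, beside 45.9%, 39.8% and 16.7% of all genes. TIMP1, an inhibitor of metalloproteinases, rose by 3.25 ± 0.16 and 3.40 ± 0.15 (1 of 3 probe sets) and CEBPD by 2.42 ± 0.21 and 1.98 ± 0.19. PIM1, a kinase that follows cytokine signals, was lower in IVM than in both other groups, with differences of -2.04 ± 0.32 from VVM and -2.97 ± 0.32 from PM. BCL3, a nuclear factor of the same response, was higher in IVM than in VVM (1.05 ± 0.19), and SERPINA3, an acute phase protein, was lower (-1.51 ± 0.32). IGF1 rose by 3.60 ± 0.63 in VVM. Its difference of -2.36 ± 0.68 between IVM and VVM was lost without PM 1, PM 2, PM 4, IVM 2, IVM 3, VVM 1, VVM 3 or VVM 4 (differences from -1.68 to -2.36, adjusted p up to 0.153).

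Members that lie near each other in the current rhesus assembly did not always move alike. Within a run, each lay at most 2 places from the next in the order of protein-coding genes. Not every run and comparison is given here. The IFIT genes lie in 1 run, and their differences between IVM and VVM were -0.27, -0.95, -0.74 and -0.63 in the order IFIT2, IFIT3, IFIT1B and IFIT1, none called. In the run of IFI27L1, IFI27 and IFI27L2 the differences from PM were 0.44, 1.15 and 1.11 in IVM and 0.32, 1.47 and 0.95 in VVM. OAS1, OAS3 and OAS2 had -2.63, -0.17 and -0.40 between IVM and VVM by their brightest probe sets. Averaged over its probe sets, OAS1 had -0.69. MX1 and MX2 had -0.34 and 1.92 from PM to VVM. TAP1 and TAP2 had 0.28 and 1.10 between IVM and VVM.

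Of the 55 genes, 26 were called in no comparison by the probe set with the highest mean. These are GBP1, GBP2, GBP6, HERC6, IFI27L1, IFI30, IFI44, IFIH1, IFIT1, IFIT1B, IFIT2, IFIT3, IFNA21, IFNB1, IFNG, IFNL1, IRF4, IRF5, JAK3, MX1, OAS2, OAS3, STAT3, STAT5B, STAT6 and XAF1. Of the 55, 12 lay below the array medians in all 3 groups, among them GBP2, GBP6, GBP7, OAS2, STAT3, STAT5A, IFIH1 and IRF4, and 4 of these 12 are interferon genes. Between IVM and VVM the 46 genes not called had differences from -1.11 (IFI30) to 0.92 (IRF8), with a median of 0.01. A gene that missed the threshold is not shown to be unchanged, since the groups hold 3 or 4 arrays.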

How the data were processed

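Expression was measured in 11 cumulus cell samples, 1 per array, from total RNA that was amplified in repeated rounds before labelling, per the labels' protocols. The deposited values are intensity on a linear scale, made by the authors with Affymetrix Expression Console and RMA, per the submitters' processing notes, which give no versions or settings. RMA removes background, brings arrays to 1 distribution and gives 1 value per probe set. The table was taken to log2 with no pseudocount. Of 52865 probe sets, 99 controls were not tested, and 24956 of the other 52766 carried 1 gene symbol in the array annotation. Of the members, 54 had the same symbol in the current RefSeq annotation (T2T-MMU8v2.0), with IFI44 as the exception. That annotation was used for names and for the order of genes only.

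The 3 group means over all 11 arrays were fitted in 1 model with limma (version 3.58.1, R version 4.3.3), moderated by empirical Bayes with 3.3 prior beside 8 residual degrees of freedom. Two-sided p-values were Benjamini-Hochberg adjusted over the 52766 probe sets of each comparison, with a call at an adjusted p under 0.05. The fit was tested on simulated data. The members, the 10 gene lists and the alternatives were chosen with earlier results of these data known. All members are named; values per array are given for those called with a difference of at least 2-fold and for some others chosen after their values were seen, and up to 4 called genes by size from each list and comparison.

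Residuals of arrays with the same replicate number correlated between -0.107 and 0.101, and the labels do not say that a number marks a shared animal or day, so the model left the numbers out. The number of arrays limits the precision, and detection calls were not used here. Alternatives changed the normalization, the probe sets, the prior, the weights, the arrays, the threshold and the covariates.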

Additional observations from a re-analysis of the deposited data

Results flagged for a closer look

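In 110 groups of 4 arrays (55 genes in PM and in VVM), 6 held an array whose gap to the nearest of the others exceeded Dixon's critical value for 4 samples, 0.829 of the range. Chance flags about 1 group in 20.

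VVM 3 stood high for IFIT1, at 9.74 where the other VVM arrays ran from 7.00 to 7.31, and for MX2, at 8.15 where they ran from 6.41 to 6.49. VVM 3 also held the highest LYZ (9.51). With the leukocyte covariate the MX2 difference from PM to VVM was 0.95 (adjusted p = 0.186), but which cells gave the RNA of these readings was not tested. PM 4 stood high for IRF3, at 9.79 beside 9.32 to 9.38, and for STAT6, at 8.57 beside 7.76 to 7.79. VVM 4 stood high for GBP6, at 3.28 beside 2.97 to 2.99, a dim reading. PM 3 stood low for IFNAR2, at 5.91, where the other PM arrays were at 6.02 each, a gap that is small against the rise of 2.11 in IVM.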

How the results depend on the processing

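Of 49 called values of single members, 2 were kept under all alternatives and without each array, OAS1 between IVM and VVM and IRF8 from PM to VVM. The counts of called members were 9 between IVM and VVM, 26 from PM to IVM and 14 from PM to VVM. Asking for at least 2-fold gave 4, 15 and 7, and an adjusted p under 0.01 gave 4 between IVM and VVM. The leukocyte covariate gave 6 from PM to VVM, and leaving out PM 1, VVM 2 and VVM 3 together gave 3 between IVM and VVM and 9 from PM to VVM. The hybridization control covariate gave 2, 0 and 1, and turned 4 differences from PM to IVM: ISG15 to -0.59, MX2 to -0.07, OASL to -0.12 and TAP1 to -0.87. The cause of these changes was not tested.

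Without 1 array the counts ran from 6 to 9, from 21 to 26 and from 13 to 18. With the replicate number as a block they were 7, 22 and 15, the block ended 6 of the 49 calls, and the labels give no ground for pairing. Lost calls by other settings were 6 with array centring, 4 with repeated quantile normalization, 9 with cyclic loess and 15 with the leukocyte covariate. The hybridization control covariate ended 47, with the sign kept in 43 and turned in 4. Other values gained a call, 14 with the mean over probe sets, 6 with repeated quantile normalization, 4 each with array weights and the leukocyte covariate, and 1 to 3 with each of 8 more settings. The mean over probe sets gives 1 value per gene and adjusts over genes, so genes with 1 probe set could also change call. Averaging over probe sets kept 15 calls at less than the main difference by over 1.5 times, among them IFI16 (2.09 in IVM and 2.29 in VVM), IRF8 (-0.84 and -1.33), MX2 (0.84 and 1.21), ISG20L2 (-0.65 and -0.89), IRF3 between IVM and VVM (0.58) and TYK2 in IVM (0.29). Members near the array medians are limited by signal over background.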
